A study of Mus musculus with 28 samples.

Results

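The brush border disaccharidases and peptidases examined here are a set of 10 genes listed by name: Sis, Lct, Treh, Mgam, Enpep, Anpep, Dpp4, Alpi, Mep1a and Mme. The set was chosen with earlier results of these data known, so counts over it describe the set and are not an independent check. All 10 were found among the 29413 genes of the BMP table and among the 55416 genes of the Tgfb table, and all 10 passed the filter on low values in both. Expression was measured by mRNA sequencing in small-intestinal organoids, which are epithelial cultures grown from crypts in a gel, of wild-type C57BL/6 mice. Crypts were first cultured in ENR medium lacking Bmp and Tgfb ligands, moved to fresh gel, and then given 1 recombinant ligand at 500 ng/ml for 24 h or left untreated. The BMP table holds 4 untreated controls, 4 samples given BMP2, and 3 samples for each of the ligands BMP3, BMP4, BMP5 and BMP7. The Tgfb table holds 3 untreated controls and 3 samples given Tgfb. The mesenchyme table holds 1 library of freshly isolated mesenchymal cells from the duodenum of PdgfraH2BeGFP mice and 1 library of such cells after immortalisation with the HPV16 E6 gene and sorting on eGFP. Organoids hold no mesenchyme, muscle, vessels or immune cells, which limits them as a model of the villus. The series title poses the question of which members of the Tgfb superfamily govern terminal differentiation of villus-tip enterocytes, and the comparison of BMP4 with BMP2 and Tgfb addresses it for the digestive enzymes.

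The brush border is the array of microvilli on the apical face of enterocytes, the absorptive cells of the small intestine. Its enzymes are membrane glycoproteins that carry out the last steps of digestion next to the transporters that take up the products: disaccharidases split short sugars, and peptidases trim peptides to amino acids and short peptides. Crypt cells carry little of them, enterocytes gain them as they move up the villus, and the enzymes peak at different heights along it. Bmp signalling is known to rise from crypt to villus and Tgfb ligands act through a related and only partly separate set of receptors and Smad proteins.

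Proximal promoters of members whose responses differed are shown so that the results can be read against them. They are 300 bases long, from 250 before to 50 after the start site, 5′ to 3′ on the gene's strand, from RefSeq on build GRCm38.p6. All 10 members matched the RefSeq table, with 12 start sites, 3 of them of Mme. Capitals mark matches on either strand to 5 motifs known from intestinal or Smad-responsive promoters: the HNF1 site GTTAAT, the CDX site TTTATG, the GATA site AGATAA, the HNF4 site CAAAGTCCA and the GC-rich Smad element GGCGCC. None of the matches overlapped one another. Sis lies at chr3:72967814-72968113 on the minus strand, Lct at chr1:128328269-128328568 on the minus strand, Alpi at chr1:87101557-87101856 on the minus strand, Treh at chr9:44672983-44673282 on the plus strand, and Mep1a at chr17:43502724-43503023 on the minus strand.
Sis: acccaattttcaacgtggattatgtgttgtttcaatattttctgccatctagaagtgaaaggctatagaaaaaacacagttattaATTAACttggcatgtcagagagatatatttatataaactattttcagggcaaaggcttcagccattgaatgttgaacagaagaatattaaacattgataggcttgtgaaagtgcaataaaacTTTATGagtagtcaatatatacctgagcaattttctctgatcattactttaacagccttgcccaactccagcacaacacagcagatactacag
Lct: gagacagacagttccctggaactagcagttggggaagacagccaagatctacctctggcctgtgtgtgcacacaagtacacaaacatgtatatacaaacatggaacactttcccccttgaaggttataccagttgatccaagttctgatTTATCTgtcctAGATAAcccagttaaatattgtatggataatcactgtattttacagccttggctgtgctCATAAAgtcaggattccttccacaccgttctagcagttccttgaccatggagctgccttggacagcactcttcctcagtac
Alpi: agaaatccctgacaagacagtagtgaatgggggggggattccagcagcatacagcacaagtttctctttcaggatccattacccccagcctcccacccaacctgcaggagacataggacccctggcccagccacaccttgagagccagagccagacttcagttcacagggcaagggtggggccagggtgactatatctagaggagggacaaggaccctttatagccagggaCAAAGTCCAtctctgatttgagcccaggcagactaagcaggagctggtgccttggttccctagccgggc
Treh: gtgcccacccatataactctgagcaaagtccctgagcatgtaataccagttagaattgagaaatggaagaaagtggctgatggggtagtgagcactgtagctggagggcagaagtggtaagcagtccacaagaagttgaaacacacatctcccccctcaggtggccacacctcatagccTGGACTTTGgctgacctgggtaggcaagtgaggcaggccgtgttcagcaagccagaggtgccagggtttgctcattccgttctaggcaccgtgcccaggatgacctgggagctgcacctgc
Mep1a: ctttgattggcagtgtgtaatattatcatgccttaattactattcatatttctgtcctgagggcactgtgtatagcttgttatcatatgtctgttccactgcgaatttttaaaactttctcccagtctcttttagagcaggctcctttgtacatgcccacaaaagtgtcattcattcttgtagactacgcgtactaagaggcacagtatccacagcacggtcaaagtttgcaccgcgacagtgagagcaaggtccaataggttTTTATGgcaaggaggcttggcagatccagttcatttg
Sis, Lct and Mep1a, 3 members with unlike responses to BMP4, each held a TTTATG match, 43 and 31 bases before the start site in Sis and Lct and 14 bases after it in Mep1a. That motif occurs in 11.9% of the 32851 promoters of the table. Lct carried 2 AGATAA matches, at 90 and 101 bases before the start site. AGATAA is found in 11.2% of promoters, and Dpp4 and Mgam held it too. The longer CAAAGTCCA was in Alpi, 19 bases before its start, and in Treh, 71 bases before, against 0.475% of all promoters. GTTAAT was found, of the members, in Sis only, 165 bases before the start, and in 7.10% of all promoters. GGCGCC was found, of the members, at 2 of the Mme start sites only, and in 11.9% of all promoters. Enpep and Anpep held none of the 5 in this window. A match is a description of the letters and does not show a bound site.

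Depth in the BMP table was 21358620 to 24784834 recovered reads per sample, with 1 read worth 0.826 to 1.28 normalized counts, and the depth of the Tgfb table is unknown because TPM keeps none. Tests ran on 14746 genes of the BMP table and 12959 of the Tgfb table. In the BMP table all comparisons against untreated organoids use the same 4 controls. Nothing in the labels says whether replicates came from separate animals or cultures, so p-values measure the spread between these samples, and the labels do not assign samples to sequencing runs. The targets Id1 and Smad7, which rise when Bmp or Tgfb receptors signal, rose under BMP2, BMP4, BMP5, BMP7 and Tgfb by 2.28 to 4.68 on the log2 scale and differed by -0.10 to -0.02 under BMP3. The balance of higher and lower genes depended on the scaling. With every sample set to the same total, the median change of all genes moved from -0.03 to -0.48 for BMP2 and from 0.04 to -0.35 for BMP4. The calls then moved from 5420 higher and 5657 lower to 3627 and 7783 for BMP2, from 4964 and 4633 to 3100 and 6864 for BMP4, and from 2833 and 1940 to 2587 and 2725 for BMP7. For BMP4 against BMP5 they moved from 4195 and 4668 to 2613 and 6925, and for BMP4 against BMP7 from 4190 and 4628 to 2668 and 6641. Quantile normalization moved BMP5 from 2429 and 1455 to 2397 and 2413, and BMP7 to 2716 and 2938. The enterocyte marker Vil1, which codes for the microvillar actin binder villin, stood at 9990 ± 1194 normalized counts in controls (SD, n = 4). Of the 6 mesenchymal markers looked for, 4 are in the BMP table, and their summed level was at most 54.2 normalized counts in any organoid sample. The 3 immune markers summed to at most 37.5. In contrast, the 2 endothelial markers summed to 569 to 774 in controls, 829.9 to 1022.2 with BMP2 and 865 to 1030 with BMP4. Of these markers, Cdh5 was at 0 in controls and with BMP4. Only 1 of them was tested, and it was higher with BMP2 (log2 0.40) and with BMP4 (log2 0.49). Neither call held with equal totals. The source of this signal was not tested.

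BMP4 and BMP2 moved the set in opposite directions. Against untreated organoids, BMP4 raised 8 of the 10 members and lowered 1, Mep1a, with a median log2 change of 1.98 over the members against 0.04 over all genes tested. Over all genes, 33.7% were higher and 31.4% lower with BMP4. BMP2 lowered 9 members and raised 1, Alpi, with a median of -3.99 against -0.03 over all genes, where 36.8% were higher and 38.4% lower. Tgfb, in its own table, likewise lowered 9 members and raised Alpi, with a median of -2.18 against -0.04, where 27.4% of genes were higher and 29.3% lower. BMP7 lowered 8 members and raised 0, against 19.2% of all genes higher and 13.2% lower, and BMP5 lowered 7 and raised 0, against 16.5% higher and 9.87% lower. Without BMP7 replicate II, 5 members were lower with BMP7 (Enpep, Mme and Mgam lost), and without BMP5 replicate III, 4 were lower with BMP5 (Enpep, Mme and Treh lost). With the same total in every sample, or quantile normalization, BMP4 raised 7 and lowered 1 (Mgam lost), and BMP2 raised 0 and lowered 9. With 1 sample left out, BMP2 raised 0 or 1 and lowered 9. BMP3 changed 0 of the 10 members and 0% of all genes. Calls are from limma on log2(normalized count + 1), or log2(TPM + 1), at a Benjamini-Hochberg adjusted p under 0.05 over all genes tested. These fits leave out any pairing by replicate number, and with replicate numbers as blocks BMP4 raised 9 members and lowered 1. A log2 change on that scale understates the change of low genes. The organoids are bulk samples, in which fewer enterocytes and less RNA per enterocyte cannot be told apart.

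**Figure D1:**
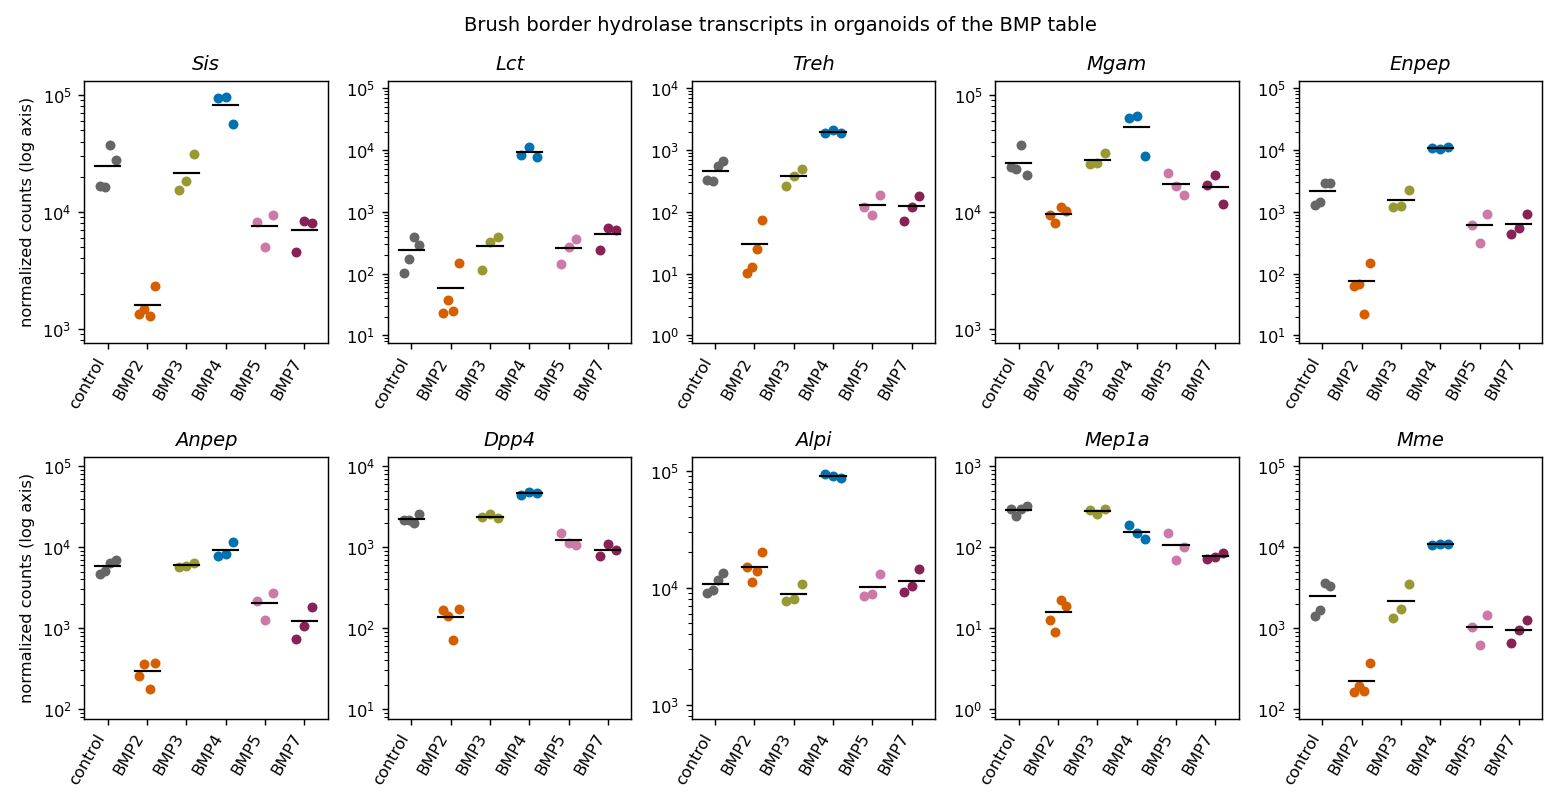
Normalized counts of each member in every organoid sample of the BMP table, on a log axis, by ligand group; points are samples and black bars are group means. BMP4 samples stand above all other groups for Sis, Lct, Treh, Enpep, Anpep, Dpp4, Alpi and Mme, whereas for Mep1a they lie below the controls, and BMP2 samples are lowest for most members but not for Alpi.

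Sis (ENSMUSG00000027790) codes for sucrase-isomaltase, which splits sucrose and the branch points of starch fragments. In control replicates II, III, IV and VI it stood at 16700, 16200, 37500 and 27900 normalized counts. With BMP2 the same replicates held 1330, 1470, 1280 and 2320. In BMP4 replicates II, III and VI the level was 93700, 96600 and 56900. No BMP2 sample reached the lowest control and no BMP4 sample came down to the highest, so the 3 groups were fully apart. BMP2 lowered Sis 14.9-fold (log2 -3.89 ± 0.31 SE, limma adjusted p = 1.61e-09), and BMP4 raised it 3.48-fold (log2 1.80 ± 0.34 SE, limma adjusted p = 0.000126). BMP5 samples held 8270, 5000 and 9420 and BMP7 samples 4510, 8350 and 8120, all under the controls and above BMP2. BMP3 samples were at 15400, 18400 and 31300, the first below the lowest control and the others among the controls. The difference between BMP4 and BMP2 was 5.69 ± 0.34 SE on the log2 scale, or 51.6-fold.

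Lct codes for lactase-phlorizin hydrolase (ENSMUSG00000026354), which splits the milk sugar lactose and in mice is highest before weaning. Controls held 104, 176, 392 and 292 normalized counts and BMP2 samples 22.7, 37.1, 24.7 and 151. BMP4 samples held 8390, 11400 and 7810. The lowest BMP4 sample was far above every other sample of the table, while BMP2 replicate VI lay within the controls and the other BMP2 samples below them. BMP4 raised Lct 42.2-fold (log2 5.40 ± 0.58 SE, limma adjusted p = 2.15e-07), the largest change of any member against control. BMP2 lowered it 4.96-fold (log2 -2.31 ± 0.54 SE, limma adjusted p = 0.000793), and without BMP2 replicate VI the log2 change was -2.92. BMP5 samples at 146, 272 and 371, BMP7 samples at 244, 550 and 512, and BMP3 samples at 116, 323 and 389 all overlapped the controls. Their log2 changes were 0.20 with BMP5, 0.93 with BMP7 and 0.19 with BMP3, and none passed the test. For BMP7 the 95% interval ran from -0.29 to 2.16, so these samples also allow a rise of several fold.

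Treh codes for trehalase (ENSMUSG00000032098), which splits the fungal and insect sugar trehalose. Control samples held 331, 313, 552 and 667 normalized counts, BMP2 samples 10.2, 12.8, 24.7 and 74.7, and BMP4 samples 1930, 2110 and 1900. The 3 groups did not overlap, and the BMP4 samples lay close together. Treh fell 18.9-fold with BMP2 (limma adjusted p = 1.00e-07) and rose 4.47-fold with BMP4 (limma adjusted p = 0.000842). BMP5 samples at 120, 88.9 and 185 and BMP7 samples at 70.8, 120 and 183 lay below the controls, with log2 changes of -1.81 and -1.92. BMP3 samples held 264, 383 and 496, the first below the lowest control and the others among the controls.

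Mgam codes for maltase-glucoamylase (ENSMUSG00000068587), which releases glucose from the ends of starch fragments. Its levels varied least among the disaccharidases: controls held 24400, 23200, 37200 and 20900 normalized counts, BMP2 samples 9430, 7970, 11100 and 10200, and BMP4 samples 64200, 66100 and 30100. BMP2 samples were all below the controls, and 1 BMP4 sample, replicate VI, fell within them. Mgam fell 2.68-fold with BMP2 (log2 -1.42 ± 0.24 SE, limma adjusted p = 2.64e-05). With BMP4 it rose 1.96-fold (log2 0.97 ± 0.26 SE, limma adjusted p = 0.00291), a call that was lost with the same total in every sample (0.57, adjusted p = 0.0799) and after quantile normalization (0.20, adjusted p = 0.506), within a range of 7.85e-05 to 0.506 over 17 alternatives. BMP5 samples held 21400, 16800 and 14000 (log2 -0.59, limma adjusted p = 0.103). BMP7 samples held 16900, 20500 and 11800 (log2 -0.69, limma adjusted p = 0.0487, from 0.0212 to 0.242 over 17 alternatives, of which 8 lost the call, among them leaving out BMP7 replicate II or VI or control replicate II, III or IV). Control and BMP7 samples did not overlap, by a margin of 20900 against 20500. BMP3 samples held 25800, 26300 and 31700. Mgam2-ps, a neighbouring copy of Mgam annotated as a pseudogene, could share reads with it. Mgam was above Mgam2-ps by 3.49 ± 0.14 on the log2 scale of normalized counts within the 4 control samples (SD). The gap was 3.92 ± 0.48 in the 3 BMP4 samples, 1.42 ± 0.08 in the 4 BMP2 samples and 1.08 ± 0.27 and 0.90 ± 0.13 in the BMP5 and BMP7 samples (SD, n = 3 each). Mgam2-ps itself rose with BMP2, by 0.65 on the log2 scale, with BMP5, by 1.82, and with BMP7, by 1.91, so the fate of Mgam alone is uncertain where reads were split between them.

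Enpep and Anpep are aminopeptidases, which clip single amino acids from the front of peptides, the first favouring acidic and the second neutral residues. Enpep (ENSMUSG00000028024) stood at 1300, 1430, 2930 and 2940 normalized counts in controls. With BMP2 it was 63.6, 69.1, 22.4 and 148, and with BMP4 10800, 10400 and 11100. BMP2 samples were all far below the controls and BMP4 samples all far above. Enpep fell 31.8-fold with BMP2 (log2 -4.99 ± 0.45 SE, limma adjusted p = 8.36e-09), the largest fall of a member, and rose 5.38-fold with BMP4 (log2 2.43 ± 0.49 SE, limma adjusted p = 0.000241). BMP5 samples held 603, 316 and 924, BMP7 samples 436, 549 and 941, and BMP3 samples 1220, 1260 and 2280. The BMP5 and BMP7 groups were below all controls, with log2 changes of -1.83 and -1.72.

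Anpep (ENSMUSG00000039062) held 4650, 5100, 6440 and 6930 normalized counts in controls, 257, 354, 178 and 371 with BMP2, and 7820, 8140 and 11700 with BMP4. It fell 20.4-fold with BMP2 (log2 -4.35 ± 0.28 SE, limma adjusted p = 7.41e-11). Although each BMP4 sample was above each control, the BMP4 difference of 0.67 ± 0.30 SE on the log2 scale did not pass the test (limma adjusted p = 0.0597). With replicate numbers as blocks, for groups whose same-numbered samples deviated together, it did pass (0.61, limma adjusted p = 0.0258), and the range over 17 alternatives was 0.00957 to 0.740. BMP5 samples held 2170, 1240 and 2700 and BMP7 samples 725, 1060 and 1830, all below the controls. Anpep was the member that BMP7 lowered most, by 2.35 on the log2 scale. BMP3 samples held 5740, 5870 and 6470.

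Dpp4 codes for dipeptidyl peptidase 4 (ENSMUSG00000035000), which removes pairs of residues from peptides with proline or alanine in second place and inactivates incretin hormones. Controls held 2190, 2160, 2020 and 2580 normalized counts, BMP2 samples 165, 141, 71.8 and 173, and BMP4 samples 4410, 4890 and 4710. The 3 groups were fully apart, and the standard error of the BMP2 difference, 0.20, was the smallest among the peptidases. It fell 17.0-fold with BMP2 (limma adjusted p = 2.84e-12) and rose 2.09-fold with BMP4 (limma adjusted p = 0.000297). BMP5 samples at 1510, 1120 and 1080 and BMP7 samples at 769, 1100 and 918 were below the controls, and BMP3 samples at 2340, 2560 and 2300 were not.

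Mep1a and Mme are endopeptidases, which cut inside peptide chains. Mep1a (ENSMUSG00000023914) codes for the alpha subunit of meprin, a metalloprotease that also trims mucins and cytokines. It was the exception to the rise with BMP4: controls held 298, 244, 297 and 320 normalized counts and BMP4 samples 187, 148 and 127. BMP2 samples held 12.5, 8.95, 22.4 and 19.0. Every BMP4 sample was below every control, and every BMP2 sample was lower still. Mep1a fell 1.89-fold with BMP4 (log2 -0.92 ± 0.26 SE, limma adjusted p = 0.00475) and 18.3-fold with BMP2 (log2 -4.19 ± 0.24 SE, limma adjusted p = 1.94e-11). BMP5 samples held 148, 69.5 and 101 and BMP7 samples 71.7, 76.5 and 84.7, with log2 changes of -1.50 and -1.88. BMP3 samples held 286, 260 and 298, close to the controls. The partner subunit Mep1b, tested outside the set, rose with BMP4 by 1.73 on the log2 scale and fell with BMP2 by 2.02. Within samples Mep1a was below Mep1b by a mean log2 ratio of -2.82 ± 0.57 over 4 controls, -5.47 ± 0.46 over 3 BMP4 samples and -4.99 ± 0.62 over 4 BMP2 samples (SD). Scaling enters this ratio only through the 1 added to each value, which matters most for the low BMP2 values of Mep1a.

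Mme (ENSMUSG00000027820) codes for neprilysin, a metallopeptidase that degrades small peptide hormones. Controls held 1390, 1670, 3570 and 3320 normalized counts, BMP2 samples 160, 194, 167 and 373, and BMP4 samples 10700, 11100 and 11100. The control replicates IV and VI were above II and III, as they were for Sis and Enpep, whereas the 3 BMP4 samples were nearly equal. Mme fell 10.9-fold with BMP2 (limma adjusted p = 6.86e-08) and rose 4.79-fold with BMP4 (limma adjusted p = 5.36e-05). BMP5 samples held 1030, 622 and 1460, of which 1 exceeded the lowest control, and BMP7 samples 648, 950 and 1270, which were below the controls. The BMP5 call (log2 -1.23, limma adjusted p = 0.0263) was also lost without control replicate IV or VI. BMP3 samples held 1340, 1700 and 3470.

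Alpi codes for intestinal alkaline phosphatase (ENSMUSG00000079440), a brush border enzyme that removes phosphate from lipopolysaccharide and nucleotides and a classical marker of mature enterocytes. It was the member that did not fall with BMP2 or Tgfb. Controls held 8910, 9480, 11600 and 13400 normalized counts, BMP2 samples 14900, 11100, 13800 and 20200, and BMP4 samples 94700, 90400 and 87000. BMP4 samples were far above all others, and BMP2 samples overlapped the controls. BMP4 raised Alpi 8.47-fold (log2 3.08 ± 0.21 SE, limma adjusted p = 7.01e-10). The BMP2 rise was 1.37-fold (log2 0.45 ± 0.19 SE, limma adjusted p = 0.0394). It was -0.0065 with the same total in every sample and -0.18 after quantile normalization, so its direction rested on the scaling, and its adjusted p ran from 0.00345 to 0.976 over 18 alternatives. The call was also lost without BMP2 replicate II or VI or control replicate II or III. BMP5 samples at 8530, 8810 and 13100, BMP7 samples at 9230, 10300 and 14400 and BMP3 samples at 7760, 8010 and 10700 overlapped the controls. Within samples Alpi went from below Sis in the 4 controls (log2 ratio -1.11 ± 0.41 SD) to above it in the 4 BMP2 samples (3.24 ± 0.27 SD), in normalized counts that are not per length. Akp3, a near-identical neighbouring phosphatase gene whose reads could be confused with those of Alpi, had a mean of 3755 ± 97.5 normalized counts in the 4 controls, 53900 ± 15423 in the 3 BMP4 samples and 1850 ± 1138 in the 4 BMP2 samples (SD), a rise with BMP4 and a fall with BMP2.

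**Figure D2:**
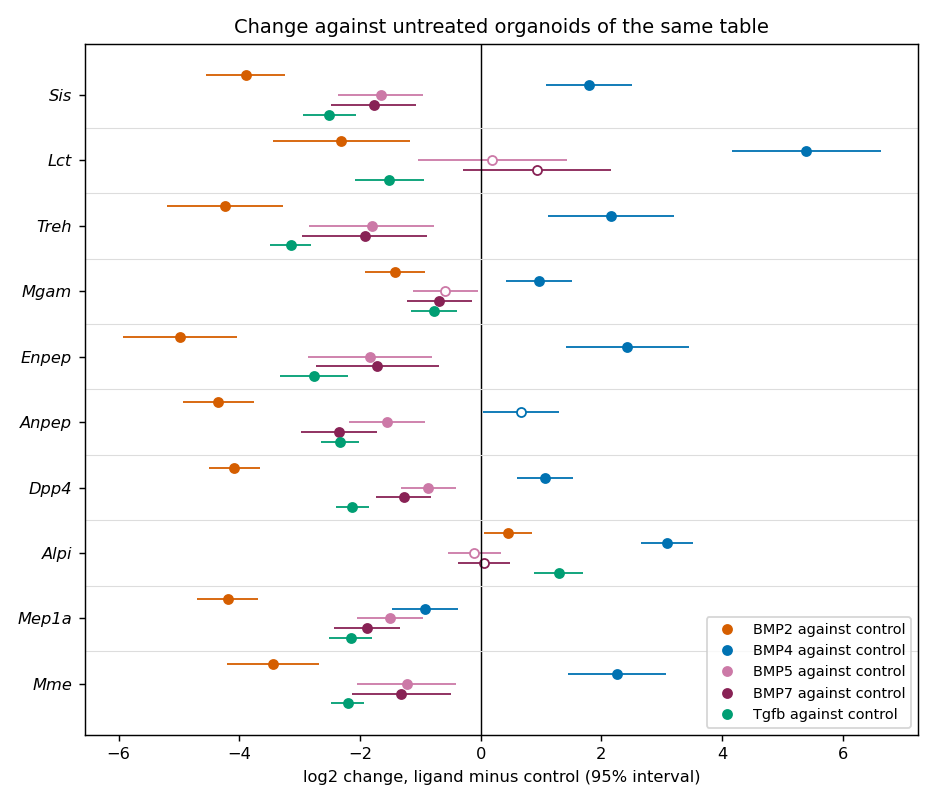
Log2 change of each member against untreated organoids of the same table with BMP2, BMP4, BMP5, BMP7 or Tgfb; bars are 95% intervals from limma, filled points passed the test and open points did not. BMP4 lies right of 0 for 9 members and left for Mep1a, while BMP2 and Tgfb lie left of 0 for all but Alpi.

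The direct comparison of BMP4 with BMP2 put all 10 members higher with BMP4, against 33.4% of all genes higher and 33.4% lower, and the groups overlapped for none. The share of all genes without overlap was not counted, in this or any other comparison, so that separation cannot be read as a trait of the members. The difference was largest for Lct (log2 7.71 ± 0.58 SE), Enpep (7.42 ± 0.49 SE) and Treh (6.40 ± 0.49 SE), with limma adjusted p of 1.38e-09, 1.96e-10 and 1.80e-09. Without BMP2 replicate VI the Lct difference was 8.31. Mme, Sis, Dpp4 and Anpep were 5.70, 5.69, 5.15 and 5.02 higher on the log2 scale. Mep1a, which both ligands lowered, was still 3.27 ± 0.26 SE higher with BMP4. Alpi and Mgam differed least, by 2.63 and 2.39. The median over members was 5.42, against -0.01 over all genes. Leaving out any 1 sample of these groups left 10 of 10 higher.

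BMP4 also stood above BMP7 for all 10 members, against 28.4% of all genes higher and 31.4% lower, and above BMP5 for 9, against 28.4% higher and 31.7% lower. Median differences were 3.30 and 3.32 on the log2 scale, against -0.00033 and -0.02 over all genes. Lct differed most, by 4.47 ± 0.62 SE against BMP7 and 5.20 ± 0.62 SE against BMP5, followed by Enpep at 4.14 and 4.26. Mep1a differed least. It was 0.96 ± 0.28 SE higher with BMP4 than with BMP7 (limma adjusted p = 0.00615, and 0.0567 once all samples had the same total). Against BMP5 its difference was 0.58, with a 95% interval of -0.01 to 1.17 (limma adjusted p = 0.0816), and with replicate numbers as blocks the limma adjusted p was 0.0421.

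**Figure D3:**
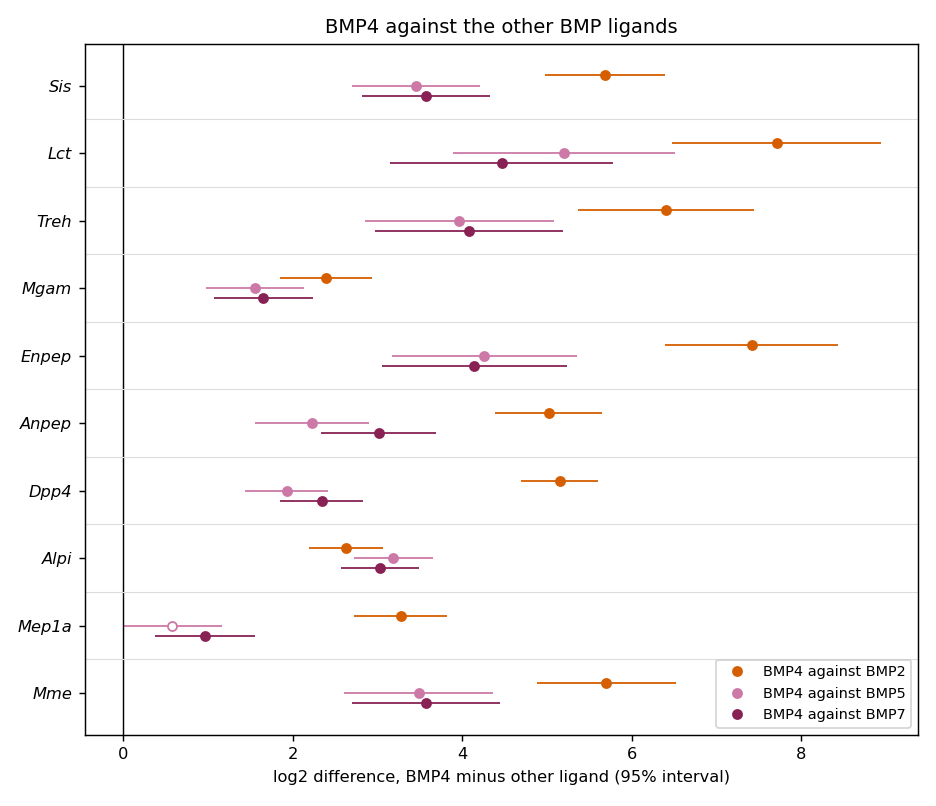
Log2 difference of each member between BMP4 and BMP2, BMP5 or BMP7 in the BMP table; bars are 95% intervals from limma, filled points passed the test and the open point did not. Against BMP2 the points run from 2.39 for Mgam to 7.71 for Lct, and the open point is Mep1a against BMP5.

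In order of level, the ligands fell into a repeated pattern for 7 members, Sis, Treh, Mgam, Enpep, Anpep, Dpp4 and Mme. BMP4 was highest, controls and BMP3 came next and overlapped, BMP5 and BMP7 followed and overlapped each other, and BMP2 was lowest. The ranges of BMP4 and the next group overlapped for Mgam only of these 7, and those of BMP2 and the group before it overlapped for Treh only. At the middle step, control and BMP5 overlapped for Mgam, and BMP3 and BMP5 for Mme. The log2 changes of Sis and Treh under the 5 BMP ligands were nearest each other of all pairs of members, with a root mean square difference of 0.25. Treh and Enpep came next at 0.37, and Sis and Mme at 0.40. Lct and Mep1a were the farthest apart, at 3.30. These distances share the same samples and controls and are descriptions.

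Among genes outside the set, the 3 with log2 changes most like those of Sis over the 5 ligands were Usp2, a deubiquitinase, at a root mean square difference of 0.17, Khk, the ketohexokinase that starts fructose breakdown, at 0.17, and Slc5a1, the sodium-glucose cotransporter SGLT1, at 0.19. For Enpep they were Slc2a5, the fructose transporter GLUT5, at 0.17, Mfsd4b2 at 0.34 and Ugt2a3 at 0.38. For Lct the nearest were farther away: Apol10a at 0.55, Gvin-ps5 at 0.61 and Piwil2 at 0.83. Gvin-ps5 is 1 of many near-identical copies, so its counts are uncertain.

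Tgfb lowered every carbohydrate-digesting member. Levels in that table are TPM, which is per length, so genes can be compared. In control replicates I, II and III Sis stood at 546, 557 and 743 TPM and with Tgfb at 88.2, 104 and 131. Mgam went from 285, 309 and 404 to 170, 188 and 220, Treh from 21.7, 16.6 and 23.6 to 1.49, 1.37 and 1.38, and Lct from 10.9, 14.3 and 20.2 to 3.98, 5.71 and 3.99. The groups did not overlap for any of the 4, a separation that was not counted over all genes. Treh fell most, 8.87-fold (log2 -3.15 ± 0.14 SE, limma adjusted p = 1.40e-05), and Mgam least, 1.71-fold (log2 -0.78 ± 0.16 SE, limma adjusted p = 0.00654). Sis fell 5.69-fold and Lct 2.85-fold. With a pseudocount of 10 TPM, Sis (log2 -2.41) fell more than Treh (-1.42), and Mgam (-0.75) and Lct (-0.77) were about equal. Mgam2-ps, which could share reads with Mgam, rose with Tgfb from 19.6, 20.2 and 27.8 TPM to 125, 130.2 and 133, by 2.48 on the log2 scale, so the fall of Mgam is uncertain here too.

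The peptidases fell with Tgfb as well. Enpep went from 49.8, 47.9 and 64.1 TPM to 7.11, 4.93 and 9.86, and Anpep from 138, 103 and 139 to 23.7, 22.7 and 25.7. Dpp4 went from 43.4, 48.8 and 51.6 to 9.59, 9.32 and 11.8, Mme from 40.7, 36.1 and 40.6 to 8.60, 6.52 and 8.04, and Mep1a from 6.78, 6.48 and 8.95 to 0.954, 0.768 and 0.885. None of these groups overlapped, again without a share over all genes. Their log2 changes ran from -2.13 for Dpp4 to -2.76 for Enpep, with limma adjusted p of 2.07e-05 to 0.000145. The order depended on the pseudocount: Mep1a, the lowest of them in TPM, was at -2.16, but at -2.94 with a pseudocount of 0.1 TPM, beside -2.91 for Enpep, and at -0.68 with a pseudocount of 10 TPM. Alpi went the other way, from 95.6, 67.6 and 99.1 to 207, 194 and 238 TPM, a 2.44-fold rise (log2 1.29 ± 0.16 SE, limma adjusted p = 0.000839). Unlike the BMP2 rise, it kept its direction and call in all 13 alternatives run. Akp3, whose reads could be confused with those of Alpi, held 18.6, 10.5 and 23.3 TPM in controls and 11.1, 4.02 and 5.61 with Tgfb. The size of the rise of Alpi alone is therefore uncertain where reads were split between them.

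**Figure D4:**
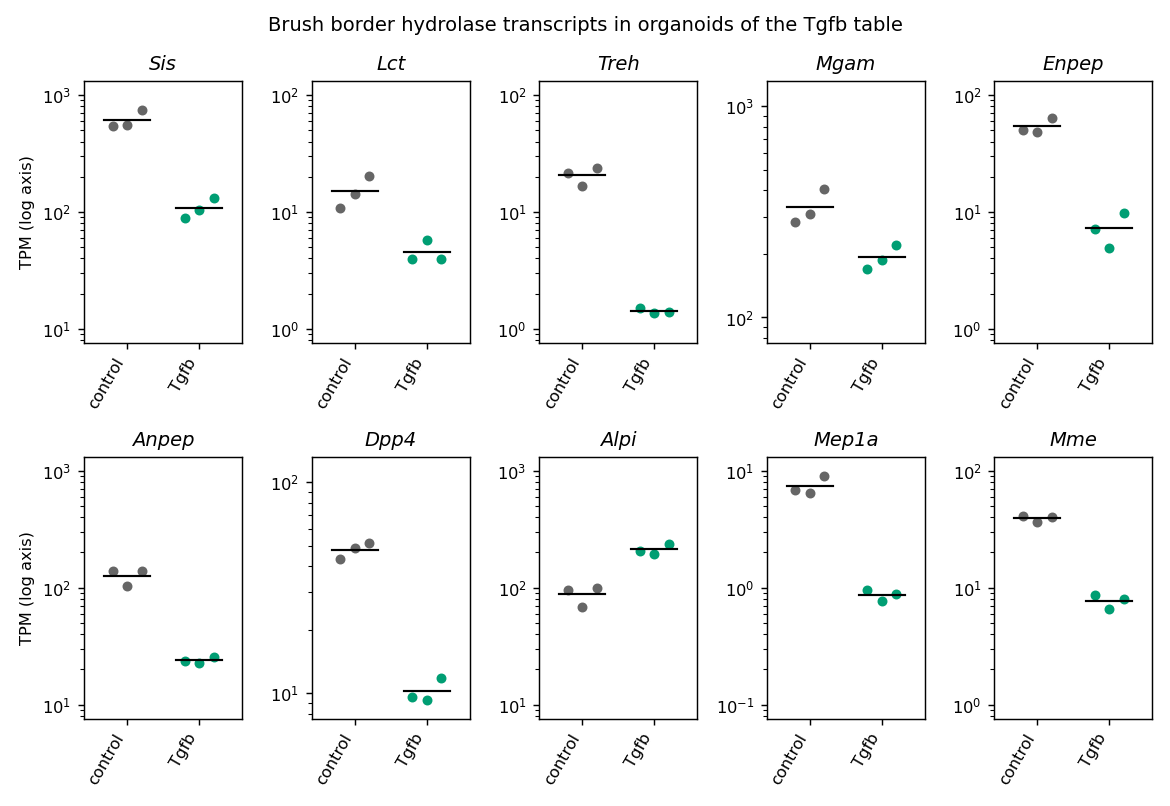
TPM of each member in every organoid sample of the Tgfb table, on a log axis; points are samples and black bars are group means. The 3 Tgfb samples lie below the 3 controls for 9 members and above them for Alpi.

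Per length, Sis was the most abundant member in the controls of the Tgfb table, at 615 ± 110 TPM (SD, n = 3), followed by Mgam at 333 and Anpep at 126. Alpi at 87.4, Enpep at 53.9, Dpp4 at 47.9, Mme at 39.1, Treh at 20.6, Lct at 15.1 and Mep1a at 7.40 came after them. Neighbours in this order overlapped only for Enpep and Dpp4 and for Treh and Lct. With Tgfb the order began with Alpi at 213 ± 22.9 TPM and Mgam at 193 ± 25.4 (SD, n = 3 each), which overlapped, and Sis came next at 108 ± 21.6. The 10 members together made up 1346 ± 215 TPM in controls and 569 ± 71.0 with Tgfb (SD, n = 3 each).

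BMP2 and Tgfb were sequenced in tables scaled apart, so their difference was not tested. Side by side, the log2 falls were larger with BMP2 for all 9 members that fell with both, such as Dpp4 at -4.08 against -2.13, Mep1a at -4.19 against -2.16 and Anpep at -4.35 against -2.34. The units differ, and a pseudocount of 1 shrinks the changes of genes with low TPM more, so the sizes are not comparable. Treh, at -4.24 against -3.15, had means of 466 and 30.6 normalized counts in controls and with BMP2, and of 20.6 and 1.41 TPM with Tgfb controls and Tgfb. The ratio of Alpi to Sis within samples rose in both tables, from -1.11 to 3.24 on the log2 scale with BMP2 and from -2.81 to 0.99 with Tgfb. That of Mgam to Mgam2-ps fell in both, from 3.49 to 1.42 and from 3.83 to 0.57.

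Other brush border hydrolases, a list of 15, followed the members with some exceptions. Of 14 tested in the BMP table, BMP4 raised 13 and lowered 0, BMP2 raised 3 and lowered 9, BMP5 raised 2 and lowered 5, and BMP7 raised 3 and lowered 5. The shares over all genes are those given above for each ligand. Folh1 is not analysed here in that table. Of those in the Tgfb table, 12 passed the filter, of which Tgfb raised 3 and lowered 7. Rescaling or leaving out 1 sample gave 13 higher with BMP4 throughout and 7 to 10 lower with BMP2. The count lowered by BMP5 dropped to between 1 and 4 whichever of its 3 samples or the 4 controls was left out, and that raised by BMP5 to 1 without BMP5 replicate III or VI or control replicate III. The count lowered by BMP7 dropped to 2 without BMP7 replicate II or control replicate IV or VI. BMP4 exceeded BMP2 for 12 and was below it for 1, against 33.4% of all genes higher and 33.4% lower. The largest differences were for Dpep1, a dipeptidase, at 5.53 on the log2 scale, Enpp7, the alkaline sphingomyelinase, at 5.38, and Tmprss15, the enteropeptidase that activates trypsinogen, at 5.13. Nt5e, the nucleotidase that makes adenosine and is also known as CD73, was lower with BMP4 than with BMP2 by a log2 difference of -3.45. Its mean was 18.7 ± 8.22 normalized counts over 4 controls, 4368 ± 2774 over 4 BMP2 samples and 364 ± 161 over 3 BMP4 samples (SD), and it rose with Tgfb too, by 3.17 on the log2 scale.

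Transporters that take up the products of these enzymes moved alongside. Of 10, BMP4 raised 8 and lowered 1, BMP2 raised 1 and lowered 8, BMP5 lowered 4, BMP7 lowered 6 and Tgfb lowered 8. Over all genes, 33.7% were higher and 31.4% lower with BMP4, and 36.8% and 38.4% with BMP2. With BMP5, BMP7 and Tgfb, 9.87%, 13.2% and 29.3% of all genes were lower. With 1 sample left out, 3 to 6 transporters were lower with BMP5 and 4 to 6 with BMP7. BMP4 exceeded BMP2 for 9 and was below it for 0, against 33.4% of all genes higher and 33.4% lower. The largest differences between them were for Slc2a5 (6.99 on the log2 scale), the basolateral glucose and fructose transporter gene Slc2a2 (6.88) and Slc5a1 (6.22). The mean of Slc5a1 was 8900 ± 1867 normalized counts over 4 controls, 542 ± 232 over 4 BMP2 samples and 37933 ± 8779 over 3 BMP4 samples (SD).

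Genes for apical delivery, which carry brush border proteins to the microvilli, did not follow the members. Of 9, BMP2 raised 8, BMP4 9, BMP5, BMP7 and Tgfb 5 each, and none was lowered by any of the 5 ligands. Over all genes, 36.8%, 33.7%, 16.5%, 19.2% and 27.4% were higher with BMP2, BMP4, BMP5, BMP7 and Tgfb. In the same order, 38.4%, 31.4%, 9.87%, 13.2% and 29.3% were lower. With another scaling BMP2 raised 6 and lowered 0, BMP5 raised 3 without BMP5 replicate VI, and Tgfb lowered 1 without Tgfb replicate III. BMP4 exceeded BMP2 for 3, led by Myo1a, the brush border myosin, at 1.88 on the log2 scale, Anxa13 at 1.49 and Rab8a at 0.68. It was below BMP2 for 5, led by Anxa2 at -1.94, Rab11a at -0.86 and Myo5b at -0.65. Over all genes 33.4% were higher and 33.4% lower in that comparison, so the 3 higher were near the share over all genes.

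**Figure D5:**
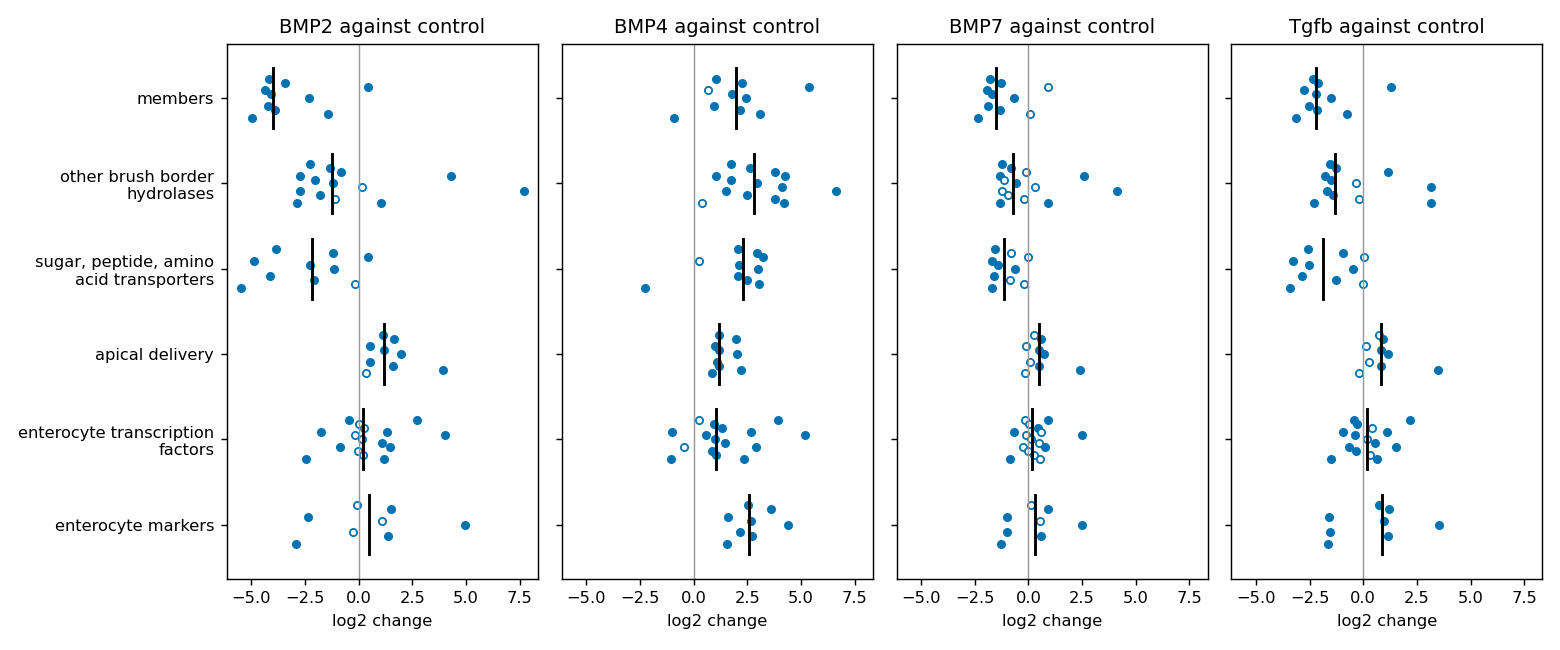
Log2 change of every tested gene of the members and of 5 gene lists with BMP2, BMP4, BMP7 or Tgfb, each against untreated organoids of its own table; filled points passed the test, open points did not, and black bars are list medians. The medians of members, other hydrolases and transporters lie left of 0 with BMP2, BMP7 and Tgfb and right of 0 with BMP4, whereas that of apical delivery lies right of 0 with all 4.

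Of 16 transcription factors known from enterocytes, BMP4 raised 12 and lowered 2, against 33.7% of all genes higher and 31.4% lower. BMP2 raised 6 and lowered 4, against 36.8% and 38.4%, and Tgfb raised 5 and lowered 7 of 15 tested, against 27.4% and 29.3%, so the number raised was near the share over all genes with both. With another scaling BMP2 lowered 7 or 8, and raised 6 or 7. The largest differences of BMP4 over BMP2 were for Hnf4g, a nuclear receptor that activates brush border genes, at 4.10 on the log2 scale, Maf, a factor of mature enterocytes, at 4.05, and Isx, which represses carotenoid uptake genes, at 2.19. Hnf4g changed in the direction of Sis, at -1.76 for BMP2, 2.34 for BMP4, -1.01 for BMP5, -0.84 for BMP7 and -1.49 for Tgfb. Prdm1, at -1.34, and Elf3, at -1.04, were among those lower with BMP4 than with BMP2. Hnf4a and Cdx2, whose sites were searched above, were 0.84 and 1.27 higher with BMP4 than with BMP2. They were picked after their values were seen, and factors for the HNF1 and GATA sites are not set beside those sites here. A link between factors and sites was not tested.

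Mouse intestine is known to switch at weaning from lactase and other suckling genes to sucrase, trehalase and arginase. The adult side of that switch, Sis, Treh and Arg2, rose with BMP4 and fell with BMP2, BMP5, BMP7 and Tgfb, 3 of 3 each time. Sis and Treh are members whose calls are given above, so only Arg2 adds to them. With 1 sample left out, 2 or 3 fell with BMP5, Treh being lost without BMP5 replicate III. Over all genes, 33.7% were higher with BMP4, and 38.4%, 9.87%, 13.2% and 29.3% were lower with BMP2, BMP5, BMP7 and Tgfb. The suckling side, which includes Lct, did not move as 1 group. Of its 5 genes BMP4 raised 3 and lowered 2, BMP2 raised 3 and lowered 2, and Tgfb raised 3 and lowered 2. The shares of all genes higher and lower were 33.7% and 31.4% with BMP4, 36.8% and 38.4% with BMP2, and 27.4% and 29.3% with Tgfb. The 2 that BMP4 lowered became 1 or 0 without BMP4 replicate II, III or VI or control replicate II, III or VI. Lct rose with BMP4 and fell with BMP2 and Tgfb. Ass1, an arginine-making enzyme, did the reverse: its mean was 344 ± 107 normalized counts over 4 controls, 2692 ± 340 over 4 BMP2 samples and 189.7 ± 13.7 over 3 BMP4 samples (SD). Prdm1, the repressor that holds back the adult pattern before weaning, rose with BMP2 by 4.01, with BMP4 by 2.67 and with Tgfb by 2.20 on the log2 scale.

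Markers of the cell types an organoid can hold moved with the same ligands. For the counts below, the shares of all genes higher and lower were 33.7% and 31.4% with BMP4 and 36.8% and 38.4% with BMP2. They were 16.5% and 9.87% with BMP5, 19.2% and 13.2% with BMP7, and 27.4% and 29.3% with Tgfb. The 8 enterocyte markers all rose with BMP4. With BMP2 3 rose and 2 fell, with BMP5 3 rose and 2 fell, with BMP7 3 rose and 3 fell, and with Tgfb 5 rose and 3 fell. The number of enterocyte markers raised with BMP2 was near the share over all genes. Without BMP5 replicate III the BMP5 counts were 2 and 1, without BMP5 replicate VI 1 and 2, and without BMP7 replicate II the BMP7 counts were 3 and 1. Their summed level was 78530 to 134290 normalized counts in controls, 140210 to 251510 with BMP2 and 466500 to 496200 with BMP4. With BMP2, Krt20, a keratin of shed and tip cells, rose by 4.95 on the log2 scale, Vil1 by 1.51 and the cadherin gene Cdh17 by 1.36. Of the 2 that fell, Fabp1, a fatty acid binding protein, fell by 2.91, and Fabp2, Apoa1 and Apoa4 differed by -0.06, -0.26 and 1.07 and did not pass the test. Within samples Sis went from above Vil1 by 1.21 ± 0.45 on the log2 scale over 4 controls to below it at -4.19 ± 0.24 over 4 BMP2 samples, and stood at 0.84 ± 0.65 over 3 BMP4 samples (SD). In the Tgfb table it went from 1.48 ± 0.22 to -2.22 ± 0.17 (SD, n = 3 each). Stem cell markers fell in 4 of 4 with BMP2, BMP4 and Tgfb, in 3 of 4 with BMP7 and in 1 of 4 with BMP5 (2 without BMP5 replicate II). The sum of the 4 was 95738 to 120015 in controls, 135 to 678 with BMP2 and 1779 to 3475 with BMP4. Enteroendocrine markers summed to 5754 to 8449 in controls, 18105 to 28490 with BMP2 and 4202 to 9876 with BMP4, and goblet markers to 19376 to 35781, 27782 to 63660 and 85220 to 140690. Of the 4 enteroendocrine markers 3 rose with BMP2 and 2 with BMP4, and of the 5 goblet markers 3 rose and 1 fell with BMP2, a fall that was lost without most single samples, and 4 rose with BMP4. Paneth cell markers fell in 4 of 4 with BMP2 and in 0 of 4 with BMP4, where 4 of 4 fell with either of the other scalings (the same total in every sample, or quantile normalization). Tuft cell markers rose in 3 of 3 with BMP2 and in 2 of 3 with BMP4, and with these scalings 1 and 3 rose with BMP4. Goblet cell markers were then 2 higher and 2 lower with BMP2 under both, and 3 higher with BMP4. Enteroendocrine markers with BMP4 were 1 higher with equal totals, and 2 higher and 1 lower with quantile normalization. No marker of these 4 cell types was at 0. The part of these cell types in the results on the members was not tested.

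BMP3 left the set where it was in untreated organoids, as far as these samples can show. The log2 changes of the 10 members ran from -0.40 for Enpep to 0.19 for Lct, and every group overlapped the controls. The 95% intervals were narrowest for Alpi, at -0.73 to 0.14, and widest for Lct, at -1.04 to 1.42. Over all genes limma called 0, edgeR 0 and DESeq2 1, and 110 genes, or 0.746%, had an unadjusted limma p under 0.05. With no effect a share of about 0.05 is expected, so this test was conservative for BMP3 and could miss small changes. Same-numbered BMP3 and control samples deviated together, at correlations of 0.281 to 0.553, which the main fit left out. The fit with replicate numbers as blocks also called 0 genes.

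The mesenchymal libraries were 1 of each kind and so had no replicate check. In them the disaccharidases, Alpi and Mep1a were near absent, whereas Dpp4, Mme, Anpep and Enpep were each detected in at least 1 library. Sis, Treh and Alpi were listed at 0 TPM in both, and Lct and Mgam were at or under 0.0171. Dpp4 stood at 9.68 TPM in the freshly isolated cells and was listed at 0 in the immortalised, sorted cells. Anpep was at 3.89 and 0.0972 TPM and Enpep at 1.71 and 0.0428 in the same order. Mme went the other way, from 0.636 to 6.10 TPM. Enpep, Anpep, Dpp4 and Mme are known outside the gut epithelium too. The enterocyte markers summed to 0.532 and 0.692 TPM in these libraries and the 6 mesenchymal markers to 15582 and 3489.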

How the data were processed

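The samples, 26 of organoids and 2 of mesenchymal cells, took their groups from the labels, and 0 sample columns lacked a sample. The submitters' processing notes name Trim Galore, Salmon, DESeq2 and the build GRCm39 without role or order, and versions are not given in the sources used here. In the BMP table the values deposited by the authors are a signal, gene counts divided by 1 factor per sample, as read from the values. All of 180721 low values (100%, within 0.1 read) were whole multiples of 1 step, so reads were recovered. Above 999 reads, values are known to 3 digits. In the other tables the authors' deposited values are TPM, since each column sums to 1000000. TPM keeps no depth, so no count test was run there. The design foresaw edgeR for raw counts, and because no table held any, limma was used.

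Two-sided tests were made in limma 3.58.1 (R 4.3.3), with an intensity trend, after taking log2(value + 1), for genes at a mean of at least 10 normalized counts or 1 TPM. The 6 groups of the BMP table entered 1 fit. Alternatives were pseudocounts of 0.1 and 10, no filter or a stricter one, 2 other scalings, each sample left out, replicate blocks, pairs of groups alone, and edgeR 4.0.16 and DESeq2 1.42.0 on recovered reads. List counts under other scalings and left-out samples were added after seeing the data. The fit was tested on simulated data. The members and lists were chosen with earlier results of these data known. Named besides the members were Id1 and Smad7, up to 3 genes a list in each direction for BMP4 against BMP2, and the 3 genes most like Sis, Lct and Enpep. Mep1b, Akp3, Mgam2-ps, Hnf4a, Cdx2 and 7 of the 8 enterocyte markers were added to these after their values were seen. Replicate numbers come from the titles. Same-numbered samples deviated together over genes, at correlations of 0.158 to 0.553, for BMP3, BMP4, BMP5 and BMP7 against control and for BMP4 against BMP5 and BMP7. This pairing entered only the alternative with replicate blocks, and the main fit left it out. A listed transcription factor and an enterocyte marker are counted with their lists, but their own values are not reported here.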

Additional observations from a re-analysis of the deposited data

Results flagged for a closer look

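In 2 of 20 checks on groups of 4 samples, a single sample stood apart from the rest by Dixon's criterion at 95%, of which chance gives about 1 in 20. Both were BMP2 replicate VI, which was the highest of its group. Lct was at 151 normalized counts there, against 22.7 to 37.1 in the other 3 BMP2 samples, a gap of 0.888 of the range of the group. Mme was at 373, against 160 to 194, a gap of 0.840 of the range. Without this sample the log2 change with BMP2 was -2.92 for Lct and -3.72 for Mme, against -2.31 and -3.44 with it, so both falls were larger without it.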

How the results depend on the processing

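Of the 90 log2 differences of members, 70 kept their direction and their side of the threshold in all alternatives run, and 20 did not in at least 1. Over 1478 alternative values, 1424 kept both, 24 lost a call, 8 gained one and 22 changed sign. The sign changes all concerned differences that did not pass the test, apart from the BMP2 rise of Alpi, which was -0.178 after quantile normalization and -0.0065 once all samples had the same total. The Alpi difference with BMP7 was -0.034 and -0.017 under those settings and -0.135 to 0.186 with 1 sample left out. With 1 sample left out, BMP5 gave -0.304 to 0.0052 for Alpi and -0.150 to 0.567 for Lct. For BMP3 the ranges were -0.021 to 0.171 for Anpep, -0.154 to 0.725 for Lct, -0.118 to 0.018 for Mep1a, -0.601 to 0.085 for Mme and -0.454 to 0.078 for Sis. With the replicate block, Mgam with BMP3 was -0.025. BMP3 changed 1 gene by DESeq2, 3 when fitted with its controls alone, and 0 to 1 with 1 sample left out. BMP5 changed 2515 to 4298 genes and 4 to 7 members, and BMP7 5 to 8 members, with 1 sample left out. The counts of genes were lowest without BMP5 replicate III (2515) or VI (2532). The cause was not tested.

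With the replicate block, BMP4 changed 10582 genes, BMP5 5738 and BMP7 6689, and it changed no call of a member beyond Anpep with BMP4 and Mep1a in BMP4 against BMP5. For BMP2 and Tgfb the titles share numbers, but not every same-numbered pair deviated together (0.018 to 0.421 for BMP2, 0.004 to 0.07 for Tgfb). The block gave 11858 and 7613 genes there, and not every sample correlated best with its own number. The stricter filter of the Tgfb table leaves out Mep1a and Lct, so these have no value under it. Depth limits little here, as the lowest member value in the BMP table was 8.95 normalized counts, above the 3 reads taken as the floor.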
